A study of Mus musculus with 11 samples.

Results

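The genes described here are 10 regulators, receptors and endocytic genes of the primitive endoderm, measured in mouse embryonic stem (ES) cells kept in 3 media. They were listed by name, with earlier results of these data known, as Gata4, Gata6, Sox17, Sox7, Pdgfra, Foxa2, Hnf4a, Dab2, Lrp2 and Cubn. They were found on the arrays by matching RefSeq accessions to mouse gene symbols. All 10 were on the array and all 10 passed the filter on dim probes, out of 20964 genes named and 16279 tested. Unsorted ES cells of 129/Ola background had been cultured for at least 3 passages in 2i/LIF (5 arrays), KOSR/LIF (3 arrays) or serum/LIF (3 arrays), with 1 Agilent one-colour array per sample. LIF, leukaemia inhibitory factor, was present in every medium. 2i adds inhibitors of GSK3 and of MEK, the kinase that activates ERK, while KOSR stands for knockout serum replacement. The samples came from 3 clonal lines, E14, HVJu5.1 and HVJu9.3, and the comparison asks whether the medium sets how much of this extraembryonic programme the cultures express.

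The primitive endoderm is the layer of the late blastocyst that separates from the epiblast and goes on to form visceral and parietal endoderm of the yolk sacs. FGF4 made by epiblast precursors signals through FGF receptors and ERK in neighbouring cells, where Gata6 is kept on and Nanog is lost, and Pdgfra, Sox17, Gata4 and Sox7 are then switched on in turn. The visceral endoderm takes up maternal nutrients by endocytosis: megalin (Lrp2) and cubilin (Cubn) are the cargo receptors and Dab2 is the adaptor that links such receptors to clathrin. ES cell cultures are known to hold small numbers of cells that express primitive endoderm genes. An array of a whole culture reports a sum, so more cells with such RNA and more RNA per cell cannot be told apart.

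The share of probes well above background was 53.7% to 72.6% on 10 of the arrays and 43.7% on KOSR/LIF replicate 3, where the 75th percentile of intensity was 65.3, against 176 to 537.6 elsewhere. The lowest signal well above background on that array lay at a log2 level of -2.37, against -3.80 to -6.27 on the others, so weak genes have less room there. The ES cell markers Pou5f1, Sox2, Nanog, Zfp42 and Esrrb were well above background on all 11 arrays. Pou5f1 stood at 3.69 on KOSR/LIF replicate 3, against 5.92 and 5.65 on KOSR/LIF replicates 1 and 2. The authors' deposited value table did not match the scanner files throughout. Of its 11 columns, 5 were most alike the scanner file of another sample: the columns of 2i/LIF replicates 1 and 4 and those of KOSR/LIF replicates 1 and 2 were exchanged in this sense (r = 0.991 to 0.995 across probes). The column of KOSR/LIF replicate 3 had r = 0.917 with its own scanner file and at most 0.974 with any. The exchanges stay within a medium and leave the tests of the scanner values untouched, but the line of those arrays is unsettled, as the titles of 2i/LIF replicates 1 to 4 also name other lines than their source names. Counts and calls on the genes named that change when KOSR/LIF replicate 3 is left out are given both ways.

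The 10 genes mostly had their highest mean in KOSR/LIF. On 2i/LIF replicates 1 to 5, 5, 4, 7, 3 and 9 of the 10 were well above background. On KOSR/LIF replicates 1 to 3 the numbers were 10, 10 and 4, and on serum/LIF 6, 8 and 10. In 2i/LIF against KOSR/LIF, 8 of 10 were lower and none higher (limma, adjusted p under 0.05 over all genes), where 8.72% of all genes tested were lower and 5.95% higher. Dab2 and Lrp2 were the 2 of 10 that were lower in 2i/LIF against serum/LIF, and none was higher, where 9.98% of all genes were lower and 6.74% higher. Gata4 was the 1 of 10 that was higher in KOSR/LIF against serum/LIF, and none was lower, where 2.37% of all genes were higher and 2.21% lower. At an unadjusted p under 0.05 the counts were 10 lower, 4 lower and 7 higher, with 0 in the opposite direction in each, where 14.8%, 15% and 9.25% of all genes passed in those directions. The median log2 fold change of the 10 genes was -3.36, -1.19 and 2.06 in these 3 comparisons, against 0.02, 0.03 and -0.03 over all genes. The comparisons share arrays, so they are not independent of one another. The 10 genes were chosen with earlier results of these data known, so their contrast with all genes is a description only. Values below are log2 levels, with the 75th percentile of each array at 0, or log2 fold changes followed by ± their standard error (SE).

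**Figure D1:**
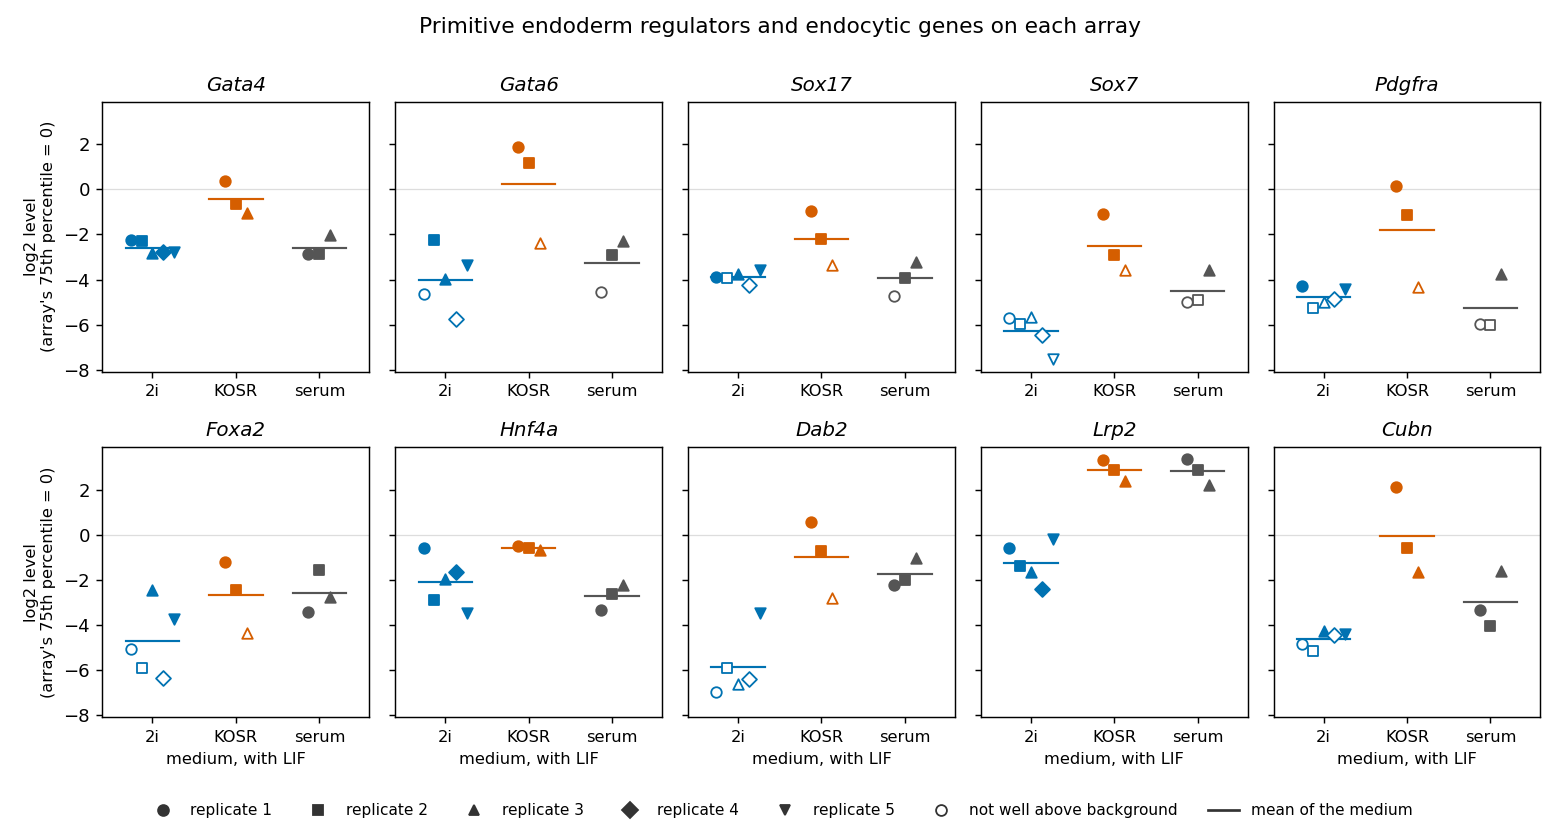
Log2 level of each of the 10 genes on every array, in 2i/LIF (5 arrays), KOSR/LIF (3) and serum/LIF (3). Each point is 1 array with its replicate number as symbol, open points are not well above background and the line is the mean of the medium. KOSR/LIF replicate 1 is the highest of all arrays for every gene except Lrp2, and KOSR/LIF replicate 3 is the lowest of the KOSR/LIF arrays for all 10.

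Gata4, a zinc finger transcription factor of the primitive endoderm and later of the heart, was the steadiest of the transcription factors. Its level was -2.24, -2.28, -2.80, -2.78 and -2.79 on 2i/LIF replicates 1 to 5, 0.35, -0.63 and -1.04 on KOSR/LIF replicates 1 to 3, and -2.88, -2.88 and -2.03 on serum/LIF replicates 1 to 3. All 11 values were well above background, and the KOSR/LIF arrays lay above every array of the other media. Gata4 fell by 2.14 ± 0.34 in 2i/LIF against KOSR/LIF (adjusted p = 0.00136) and rose by 2.16 ± 0.38 in KOSR/LIF against serum/LIF (adjusted p = 0.0101), or 4.46-fold. On leaving out serum/LIF replicate 1 the second call was lost (2.02, adjusted p = 0.0534). Between 2i/LIF and serum/LIF the difference was 0.02 ± 0.34, with a 95% interval of -0.72 to 0.76. Its SD within media, 0.48, was close to the median of all genes, 0.44, and was the lowest of the 10.

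Gata6, which acts earlier and is needed to make primitive endoderm at all, had the widest spread of the 10. Its level was -4.66, -2.24, -3.99, -5.77 and -3.37 on 2i/LIF replicates 1 to 5, with replicates 1 and 4 not well above background. It was 1.90 and 1.17 on KOSR/LIF replicates 1 and 2 and -2.36, not well above background, on replicate 3. The serum/LIF arrays stood at -4.54 (not well above background), -2.91 and -2.31. KOSR/LIF replicates 1 and 2 were thus far above every other array, and replicate 3 lay among the 2i/LIF and serum/LIF arrays. The SD within media was 1.59, larger than that of 99.2% of genes tested. Gata6 fell by 4.24 ± 0.98 in 2i/LIF against KOSR/LIF (adjusted p = 0.0127), and the change was -3.41 when KOSR/LIF replicate 1 was left out (adjusted p = 0.0623) and -3.77 when replicate 2 was (adjusted p = 0.0561), so neither passed. Its fold change in KOSR/LIF against serum/LIF was 3.49 ± 1.10 and did not pass (adjusted p = 0.103). Without KOSR/LIF replicate 3 it was 4.79 (adjusted p = 0.0224).

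Sox17 and Sox7, related HMG box factors that are switched on as primitive endoderm matures, stood low in every medium except on KOSR/LIF replicates 1 and 2. Sox17 was -3.87, -3.95, -3.74, -4.23 and -3.57 on 2i/LIF replicates 1 to 5, with replicates 2 and 4 not well above background. On KOSR/LIF it was -0.98 and -2.21 on replicates 1 and 2 and -3.36, not well above background, on replicate 3. On serum/LIF it was -4.71 (not well above background), -3.93 and -3.20. The 2i/LIF arrays lay within a range of 0.66, all below the KOSR/LIF arrays, while KOSR/LIF replicate 3 fell just below serum/LIF replicate 3. Sox17 fell by 1.69 ± 0.47 in 2i/LIF against KOSR/LIF (adjusted p = 0.0328), a call lost on leaving out any 1 of 6 arrays (adjusted p = 0.0511 to 0.133), namely KOSR/LIF replicates 1 and 2 and 2i/LIF replicates 1 to 4. A second Sox17 probe that also passed the filter gave -2.43 ± 1.00 and did not pass the test (adjusted p = 0.138). The fold change in KOSR/LIF against serum/LIF was 1.76 ± 0.53 (adjusted p = 0.0875), or 2.35 without KOSR/LIF replicate 3 (adjusted p = 0.0224).

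Sox7 was not well above background on any 2i/LIF array, where its signal gave -5.72, -5.96, -5.67, -6.45 and -7.54. It was -1.09 and -2.89 on KOSR/LIF replicates 1 and 2, and -3.59, not well above background, on replicate 3. On serum/LIF it was -5.01 and -4.89, neither well above background, and -3.59 on replicate 3. Sox7 was therefore at least 4.81-fold lower in 2i/LIF than in KOSR/LIF (adjusted p = 0.00137). This bound sets the KOSR/LIF mean against the mean of the weakest signals well above background on each 2i/LIF array, or the probe's own signal where that is higher. The KOSR/LIF mean includes replicate 3 at its dim signal, so the bound is not strict. Sox7 stood, in KOSR/LIF against serum/LIF, at 1.97 ± 0.66 (adjusted p = 0.125), or 1.57 with dim signals raised. Between 2i/LIF and serum/LIF no size is given, as serum/LIF replicates 1 and 2 and every 2i/LIF array were not well above background. The test did not pass there (adjusted p = 0.0636).

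Pdgfra, the receptor for PDGF-A and a surface marker of primitive endoderm precursors, was near background outside KOSR/LIF. It was -4.29, -5.28, -5.00, -4.87 and -4.40 on 2i/LIF replicates 1 to 5, well above background on replicates 1 and 5 only. It was 0.13 and -1.14 on KOSR/LIF replicates 1 and 2, and -4.33, not well above background, on replicate 3. On serum/LIF it was -5.95 and -6.03, neither well above background, and -3.76 on replicate 3. Only KOSR/LIF replicates 1 and 2 stood clear of the other arrays. Pdgfra fell by 2.98 ± 0.84 in 2i/LIF against KOSR/LIF (adjusted p = 0.0334), or by 2.56 when signals below the weakest one well above background on their array were set to it. That call was lost on leaving out any 1 of 6 arrays, KOSR/LIF replicates 1 and 2 and 2i/LIF replicates 2 to 5 (adjusted p = 0.0502 to 0.139), while without KOSR/LIF replicate 3 the change was -4.26 (adjusted p = 0.00142). Pdgfra stood in KOSR/LIF against serum/LIF at 3.46 ± 0.94 (adjusted p = 0.0604), at 2.37 with dim signals raised, and at 4.74 without KOSR/LIF replicate 3 (adjusted p = 0.00735).

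Pdgfa, the gene of the receptor's ligand, was higher in 2i/LIF than in either other medium. It averaged 5.78 in 2i/LIF, 3.87 in KOSR/LIF and 4.59 in serum/LIF. It rose by 1.91 ± 0.27 in 2i/LIF against KOSR/LIF (adjusted p = 0.000777) and by 1.19 ± 0.27 in 2i/LIF against serum/LIF (adjusted p = 0.0100).

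Foxa2 and Hnf4a, a forkhead factor and a nuclear receptor of visceral endoderm and of later liver and gut, did not pass in any comparison of the main fit. That fit used the scanner values of all 11 arrays with no block. On the deposited values Foxa2 did pass in 2i/LIF against KOSR/LIF. Foxa2 was -5.08, -5.88, -2.45, -6.33 and -3.73 on 2i/LIF replicates 1 to 5, with only replicates 3 and 5 well above background. On KOSR/LIF it was -1.20, -2.46 and -4.35, the last not well above background, and on serum/LIF -3.40, -1.54 and -2.76. The 3 media overlapped, and the SD within media was 1.46. Its fold change was -2.02 ± 0.90 in 2i/LIF against KOSR/LIF (adjusted p = 0.173), -2.13 ± 0.90 in 2i/LIF against serum/LIF (adjusted p = 0.149) and -0.11 ± 1.01 in KOSR/LIF against serum/LIF (adjusted p = 0.963). With dim signals raised the 3 values were -1.13, -1.24 and 0.55. A second Foxa2 probe that also passed the filter gave -1.92 ± 0.62, -1.15 ± 0.62 and 0.76 ± 0.69 in the same order. It did not pass the test either (adjusted p = 0.0607, 0.273 and 0.586). Without 2i/LIF replicate 3, Foxa2 passed in 2i/LIF against serum/LIF (-2.69, adjusted p = 0.0434).

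Hnf4a was well above background on all 11 arrays. It was -0.57, -2.87, -1.95, -1.63 and -3.48 on 2i/LIF replicates 1 to 5, -0.49, -0.57 and -0.68 on KOSR/LIF and -3.35, -2.60 and -2.20 on serum/LIF. The KOSR/LIF arrays lay within a range of 0.19, above every serum/LIF array, and 2i/LIF replicate 1 reached the KOSR/LIF level. Its fold change was -1.52 ± 0.54 in 2i/LIF against KOSR/LIF (adjusted p = 0.0887), 0.62 ± 0.54 in 2i/LIF against serum/LIF (adjusted p = 0.561) and 2.14 ± 0.61 in KOSR/LIF against serum/LIF (adjusted p = 0.0728). No other of the 10 genes had so narrow a range in KOSR/LIF. With slide as a block Hnf4a passed in all 3 comparisons, at -1.19 (adjusted p = 0.0360), 1.34 (adjusted p = 0.00994) and 2.52 (adjusted p = 0.0102). KOSR/LIF replicate 3 and 2i/LIF replicates 2 and 5 were each alone on a slide, so they add nothing to the differences of that fit. Without 2i/LIF replicate 1 it passed in 2i/LIF against KOSR/LIF (-1.91, adjusted p = 0.0163) and in KOSR/LIF against serum/LIF (2.14, adjusted p = 0.0313), and without 2i/LIF replicate 5 in KOSR/LIF against serum/LIF (adjusted p = 0.0416).

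The 3 endocytic genes, described next, all fell in 2i/LIF against KOSR/LIF, while only Dab2 and Lrp2 also passed in 2i/LIF against serum/LIF. Their promoter windows are printed because these genes moved together between 2i/LIF and KOSR/LIF. RefSeq windows (build GRCm38.p6, 250 bases before to 50 after a transcription start, on the strand of the gene) were held for 6 of the 10 genes, 10 windows in all. Capitals mark AGATAA or TGATAA, sequences that GATA factors bind, on either strand (TTATCT is AGATAA on the other strand). The windows are chr15:6299539-6299838 (plus strand) and chr15:6386498-6386797 (plus strand) for the 2 starts of Dab2, chr2:69585980-69586279 (minus strand) for Lrp2 and chr2:13491827-13492126 (minus strand) for Cubn.
Dab2, first start: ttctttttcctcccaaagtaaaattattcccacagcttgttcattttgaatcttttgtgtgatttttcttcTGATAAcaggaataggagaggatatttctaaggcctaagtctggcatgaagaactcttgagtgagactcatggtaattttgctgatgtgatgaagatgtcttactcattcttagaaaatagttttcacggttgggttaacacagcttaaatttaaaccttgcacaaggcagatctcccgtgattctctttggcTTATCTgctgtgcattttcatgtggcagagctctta
Dab2, second start: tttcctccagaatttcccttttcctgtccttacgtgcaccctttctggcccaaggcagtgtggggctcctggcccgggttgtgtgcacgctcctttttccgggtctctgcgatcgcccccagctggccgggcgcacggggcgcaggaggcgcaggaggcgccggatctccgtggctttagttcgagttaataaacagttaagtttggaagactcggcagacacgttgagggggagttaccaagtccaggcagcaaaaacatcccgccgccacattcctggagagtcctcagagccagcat
Lrp2: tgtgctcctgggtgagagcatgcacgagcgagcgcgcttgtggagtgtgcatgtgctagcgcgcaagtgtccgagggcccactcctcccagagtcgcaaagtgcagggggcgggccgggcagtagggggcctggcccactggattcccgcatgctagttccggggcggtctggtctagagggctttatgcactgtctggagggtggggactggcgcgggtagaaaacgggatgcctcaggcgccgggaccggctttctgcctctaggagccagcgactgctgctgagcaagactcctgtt
Cubn: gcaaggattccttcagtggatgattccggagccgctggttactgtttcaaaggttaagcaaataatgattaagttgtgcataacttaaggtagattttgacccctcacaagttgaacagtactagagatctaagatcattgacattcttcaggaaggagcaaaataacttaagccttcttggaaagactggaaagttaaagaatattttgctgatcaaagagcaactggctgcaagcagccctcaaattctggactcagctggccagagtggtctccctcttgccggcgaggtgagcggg

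The first Dab2 window held TGATAA beginning 179 bases before the start (-179) and AGATAA on the other strand at base 14 after it. The second Dab2 window and those of Lrp2 and Cubn held neither. AGATAA or TGATAA was in 3 of the 10 windows, 1 each of Dab2, Foxa2 and Hnf4a, against 18.6% of 32851 windows of the same length, with both strands searched. A window that held both was counted once. ACAATGG, a sequence that SOX factors bind, was in none of the 10 and in 3.66% of all windows. These matches describe the letters only.

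Dab2, the clathrin adaptor, was near background in 2i/LIF and well above background on all 3 serum/LIF arrays. It was -6.96, -5.91, -6.60, -6.41 and -3.48 on 2i/LIF replicates 1 to 5, well above background on replicate 5 only. On KOSR/LIF it was 0.56, -0.72 and -2.80, the last not well above background, and on serum/LIF -2.23, -1.99 and -1.03. No 2i/LIF array reached any array of the other media, and the KOSR/LIF arrays lay on both sides of the serum/LIF arrays. Dab2 fell by 4.89 ± 0.83 in 2i/LIF against KOSR/LIF (adjusted p = 0.00221) and by 4.12 ± 0.83 in 2i/LIF against serum/LIF (adjusted p = 0.00471). With dim signals raised the changes were -3.27 and -2.51. Against serum/LIF, KOSR/LIF stood at 0.77 ± 0.93 (adjusted p = 0.692).

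Lrp2 encodes megalin, a very large endocytic receptor. It was -0.58, -1.37, -1.63, -2.41 and -0.20 on 2i/LIF replicates 1 to 5, 3.31, 2.89 and 2.38 on KOSR/LIF and 3.35, 2.87 and 2.23 on serum/LIF. All 11 values were well above background, every 2i/LIF array lay below every other array, and KOSR/LIF and serum/LIF overlapped almost fully. Lrp2 fell by 4.10 ± 0.47 in 2i/LIF against KOSR/LIF (17.1-fold lower, adjusted p = 0.000183) and its change was -4.05 ± 0.47 in 2i/LIF against serum/LIF (16.6-fold lower, adjusted p = 0.000137). Between KOSR/LIF and serum/LIF the difference was 0.04 ± 0.52, with a 95% interval of -1.10 to 1.19. Lrp2 was the only one of the 10 whose highest value was on a serum/LIF array, replicate 1.

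Cubn, cubilin, a receptor with no membrane span of its own, differed from Lrp2 in serum/LIF. It was -4.83, -5.13, -4.27, -4.44 and -4.39 on 2i/LIF replicates 1 to 5, well above background on replicates 3 and 5 only. It was 2.12, -0.60 and -1.66 on KOSR/LIF and -3.35, -4.03 and -1.59 on serum/LIF. The 2i/LIF arrays lay below all others, and serum/LIF replicate 3 was level with KOSR/LIF replicate 3. Cubn fell by 4.56 ± 0.74 in 2i/LIF against KOSR/LIF (adjusted p = 0.00166). It stood at -1.62 ± 0.74 in 2i/LIF against serum/LIF (adjusted p = 0.186) and at 2.94 ± 0.83 in KOSR/LIF against serum/LIF (adjusted p = 0.0704), or 3.75 without KOSR/LIF replicate 3 (adjusted p = 0.0311).

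**Figure D2:**
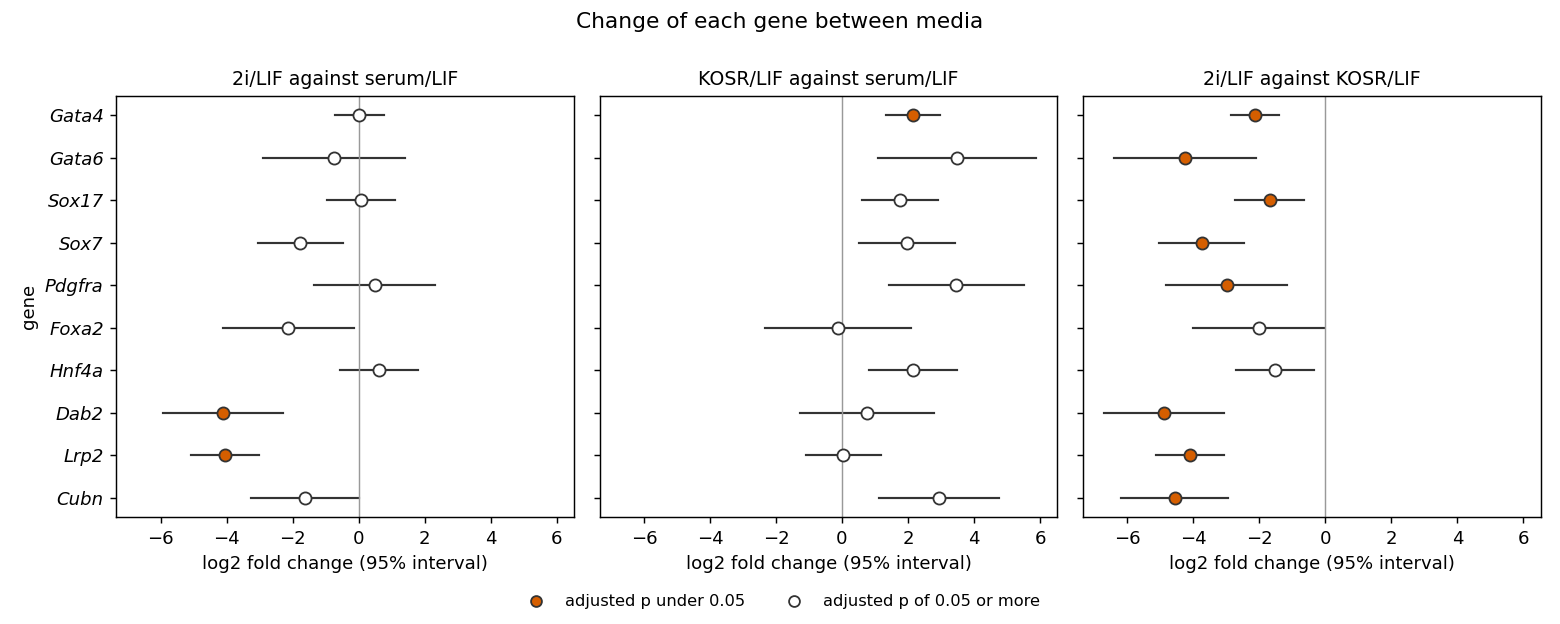
Log2 fold change of each gene in the 3 comparisons, with its 95% interval from the limma fit over 11 arrays. Filled points have an adjusted p under 0.05: Dab2 and Lrp2 in 2i/LIF against serum/LIF, Gata4 in KOSR/LIF against serum/LIF, and all except Foxa2 and Hnf4a in 2i/LIF against KOSR/LIF.

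Lower levels in 2i/LIF than in KOSR/LIF were found for 8 of the 10 genes with all arrays, without KOSR/LIF replicate 3, and within the 6 arrays of scan day 1, which hold 2 arrays of each medium on 1 slide. Of all genes, 7.58% were lower without that array and 8.24% within that day. Within that day the change was -2.65 for Gata4 and -5.12 for Lrp2, which were well above background on all its arrays. Scan day 2 held 1 array of 2i/LIF and 1 of KOSR/LIF, replicate 3, so it gives no test. Gata4, Hnf4a and Lrp2 were well above background on both, and their differences there were -1.23, -2.19 and -3.75. The groups did not overlap for 6 of the 10 (Gata4, Sox17, Sox7, Dab2, Lrp2 and Cubn), as for 10.6% of all genes in that direction. For Sox17, Sox7 and Dab2 this rests on the signal of KOSR/LIF replicate 3, which was not well above background. The number of the 10 genes that passed the test, 8 with all arrays, was 5 without KOSR/LIF replicate 1 and 5 without replicate 2. Of all 16279 genes, 2388 passed in either direction with all arrays, 1759 without replicate 1 and 1896 without replicate 2.

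For 2i/LIF against serum/LIF, Dab2 and Lrp2 were also the 2 lower genes within scan day 1 (8.59% of all genes were lower there), where Lrp2 stood at -5.13 (adjusted p = 0.00236). Dab2 (adjusted p = 0.0047) was not well above background on either 2i/LIF array of that day, so no size is given for it. Scan day 3 held 2 arrays of 2i/LIF and 1 of serum/LIF, and its values are given with no test. There Lrp2 stood at -2.62 and Cubn at -3.02, the second with 1 of the 2 arrays of 2i/LIF not well above background. The groups did not overlap for 4 of the 10, Sox7, Dab2, Lrp2 and Cubn, as for 14% of all genes in that direction. For Sox7 this rests on signals not well above background, on serum/LIF replicates 1 and 2 and on every 2i/LIF array. Sox7 and Cubn also passed without KOSR/LIF replicate 1 (adjusted p = 0.0271 and 0.0485), and Sox7 without KOSR/LIF replicate 3 (adjusted p = 0.0444). No size is given for Sox7 there, and Cubn stood at -1.62, or -1.31 with dim signals raised.

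The comparison of KOSR/LIF with serum/LIF depended most on single arrays. Without KOSR/LIF replicate 3, 5 of 10 were higher (Gata4, Gata6, Sox17, Pdgfra and Cubn), where 2.19% of all genes were higher. Within scan day 1, with KOSR/LIF replicates 1 and 2 and serum/LIF replicates 1 and 2, 5 of 10 were higher (Gata4, Gata6, Sox17, Pdgfra and Hnf4a), where 2.47% of all genes were. Gata4 and Hnf4a, well above background on all 4 of these arrays, stood there at 2.74 and 2.45. Without serum/LIF replicate 1 none passed, where 0.756% of all genes were higher (limma; 7 were higher at an unadjusted p under 0.05, as were 7.08% of all genes). With all arrays the groups did not overlap for 3 of the 10, Gata4, Sox7 and Hnf4a, as for 12.4% of all genes in that direction. For Sox7 this rests on a difference smaller than 0.01, since KOSR/LIF replicate 3, not well above background, and serum/LIF replicate 3 both read -3.59.

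The deposited value table gave a different picture of KOSR/LIF replicate 3. In the scanner file that sample was above every serum/LIF array for 2 of the 10 genes at 2 decimals, Gata4 and Hnf4a, with Sox7 level, while in its deposited column it was above them for 9 of 10, all except Foxa2. For Gata6 the sample was 0.89 above the serum/LIF mean in the scanner file and 2.22 above it in the deposited table, and for Lrp2 -0.44 and 0.77. Fitted on the deposited table, 5 of 10 were higher in KOSR/LIF against serum/LIF, where 2.29% of all genes were. They were Gata4 (1.64), Gata6 (3.45), Sox17 (1.48), Pdgfra (2.77) and Cubn (2.92), with adjusted p of 0.00689 to 0.0427. On those values 9 of 10 were lower in 2i/LIF against KOSR/LIF, all except Hnf4a, where 10.4% of all genes were. Which of the 2 sources holds the labelled sample was not settled by these data.

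**Figure D3:**
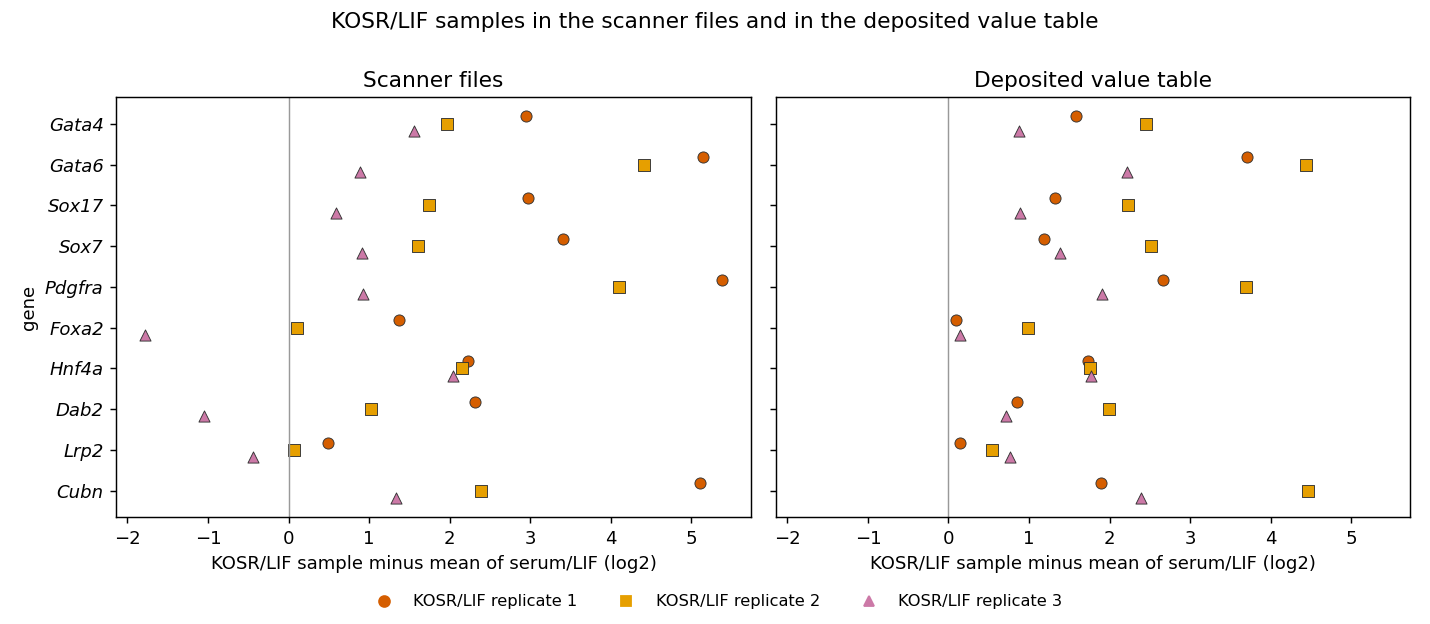
Log2 difference of each KOSR/LIF sample from the mean of the serum/LIF arrays, for the scanner files (left) and the authors' deposited value table (right). At 2 decimals replicate 3 is above every serum/LIF array for 2 genes on the left, with Sox7 level, and for 9 on the right, and replicates 1 and 2 are exchanged between the sources.

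The spread among arrays of a medium was wide for most of the 10 genes. KOSR/LIF replicate 1 was the highest array of all for 9 genes, and replicate 3 the lowest KOSR/LIF array for all 10. After normexp background correction 5 of 10 were lowest on replicate 3. Within serum/LIF, replicate 3 was highest for 8 genes (2 after normexp). Within 2i/LIF no array stood out, with replicates 1, 3 and 5 each highest for 3 genes. The SD within media was 1.59 for Gata6, 1.46 for Foxa2, 1.35 for Pdgfra, 1.34 for Dab2, 1.19 for Cubn, 0.93 for Sox7, 0.85 for Hnf4a, 0.73 for Sox17 and 0.72 for Lrp2.

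Among relatives of the 10 genes in the same families, 18 were tested, and their median log2 fold change in 2i/LIF against KOSR/LIF was -0.56. Foxa1, the forkhead factor closest to Foxa2, fell by 4.23 ± 0.97 in that comparison (adjusted p = 0.0123), or by 3.00 with dim signals raised. Against serum/LIF, the HMG box gene Sox18 fell by 2.14 ± 0.55 in 2i/LIF (-1.55 with dim signals raised), and the forkhead gene Foxa3 fell by 1.48 ± 0.44. Foxa3 also fell by 2.26 ± 0.49 in KOSR/LIF against serum/LIF (adjusted p = 0.0251), or -1.37 with dim signals raised. It was well above background on 1 of the 3 KOSR/LIF arrays. The call did not hold when KOSR/LIF replicate 3 was left out (adjusted p = 0.0614).

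For the general endocytic machinery 24 partners were tested (clathrin, AP-2 adaptor, sorting and endosome genes). In 2i/LIF against serum/LIF 1 fell and 0 rose, where 9.98% of all genes fell and 6.74% rose. In KOSR/LIF against serum/LIF 1 fell and 0 rose, where 2.21% of all genes fell and 2.37% rose. In 2i/LIF against KOSR/LIF 1 rose and 2 fell, close to the shares of all genes, 5.95% and 8.72%, and the list median was 0.14. Amn, amnionless, which carries cubilin to the cell surface, fell by 2.41 ± 0.57 (adjusted p = 0.0144), and by 1.88 ± 0.57 in 2i/LIF against serum/LIF (adjusted p = 0.0421). Folr1, a folate receptor, fell by 0.92 ± 0.26 in 2i/LIF against KOSR/LIF (adjusted p = 0.0335), a call lost without KOSR/LIF replicate 3 (adjusted p = 0.0677). The clathrin light chain gene Cltb rose by 1.58 ± 0.24 (adjusted p = 0.000992), and it fell by 1.31 ± 0.27 in KOSR/LIF against serum/LIF (adjusted p = 0.0183). The partners were well expressed, with 23 or 24 of the 24 well above background on every array.

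Markers of the layers that primitive endoderm forms were lower in 2i/LIF in part. Of 18 visceral endoderm genes tested, a list that holds Cubn and Amn, 6 fell in 2i/LIF against KOSR/LIF and 6 in 2i/LIF against serum/LIF. None was higher, and 8.72% and 9.98% of all genes tested were lower in these comparisons. Without KOSR/LIF replicate 3 the counts were 5 and 5, where 7.58% and 11% of all genes were lower. Spink1, a trypsin inhibitor, changed by -4.26 ± 0.73 and -5.81 ± 0.73 in these comparisons. Hhex, a homeobox factor of primitive and anterior visceral endoderm, did not pass in either (0.40 ± 0.43 and 0.62 ± 0.43). Of 17 genes of parietal endoderm and basement membrane, 8 fell and 2 rose in 2i/LIF against KOSR/LIF. Of all genes, 8.72% fell and 5.95% rose there. Pth1r, the receptor for parathyroid hormone-related peptide, fell by 4.93 ± 0.54, while Col4a1 and Col4a2, which encode collagen IV chains, fell by 4.71 ± 0.69 and fell by 4.02 ± 0.45. The basement membrane gene Nid1 rose by 2.75 ± 0.27, and Fst, which binds activin, by 2.22 ± 0.27. For KOSR/LIF against serum/LIF 1 gene of each direction passed in the parietal list, Stra6 (3.77 ± 0.55) and Fst (-1.90 ± 0.31). Stra6 was well above background on 1 of the 3 serum/LIF arrays, and stood at 3.08 with dim signals raised. In the visceral list only Apoe passed (-1.39 ± 0.32), and 1 gene also rose without KOSR/LIF replicate 3. Of all genes, 2.37% were higher and 2.21% lower with all arrays.

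Among 17 genes of the FGF, PDGF and ERK signals that specify primitive endoderm, 3 rose and 5 fell in 2i/LIF against KOSR/LIF. Of all genes, 5.95% rose and 8.72% fell there. Without KOSR/LIF replicate 3 the counts were 3 and 4, where 4.45% and 7.58% of all genes passed. None of the 17 passed in KOSR/LIF against serum/LIF (limma), where 2.37% of all genes were higher and 2.21% lower. At an unadjusted p under 0.05 in that comparison, 7 were lower and 0 higher. Among the 5 that fell in 2i/LIF against KOSR/LIF were Dusp4 (-3.84 ± 0.66), Dusp6 (-3.53 ± 0.25) and Spry4, all feedback genes that ERK switches on. Spry4 was at least 4.27-fold lower (adjusted p = 7.2e-05). Spry4 was well above background on 2 of the 3 KOSR/LIF arrays, so its bound is not strict. The ligand gene Fgf4 rose by 1.08 ± 0.23 and the ETS factor Etv5 by 0.79 ± 0.23. Of 14 epiblast factors 8 rose in 2i/LIF against KOSR/LIF (5 without KOSR/LIF replicate 3) and 4 fell in KOSR/LIF against serum/LIF. Of all genes, 5.95% rose in the first comparison (4.45% without that array) and 2.21% fell in the second. In the first, Tfcp2l1 rose by 2.88 ± 0.25 and Klf2 by 1.81 ± 0.28. Nanog, the factor that opposes Gata6, rose there by 1.81 ± 0.41 (adjusted p = 0.0113), or 1.15 without KOSR/LIF replicate 3 (adjusted p = 0.00994). Nanog was 1.21 on KOSR/LIF replicate 3, against 2.93 and 3.45 on KOSR/LIF replicates 1 and 2.

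Markers of other cell types also differed between media in part, and not always in the direction of the 10 genes. Of 11 fibroblast and feeder markers tested, 5 fell in 2i/LIF against KOSR/LIF and 5 in 2i/LIF against serum/LIF. Of all genes, 8.72% and 9.98% were lower in these comparisons. The collagen I genes Col1a2 and Col1a1 fell by 4.38 ± 0.39 and 3.27 ± 0.78 in the first comparison. The list median lay between -3.27 and -1.46 on the 2i/LIF arrays, between -1.54 and -0.59 on KOSR/LIF and between -2.20 and -0.96 on serum/LIF, with 7 to 10, 7 to 10 and 10 to 11 of its 11 genes well above background. Of 12 trophoblast genes 3 fell and 1 rose in 2i/LIF against KOSR/LIF, where 8.72% and 5.95% of all genes did. Their median level ran from -2.12 to -0.77, from -1.62 to -0.63 and from -0.96 to -0.78 in the 3 media. Their median log2 fold change in that comparison was 0.13, against -3.36 for the 10 genes. In KOSR/LIF against serum/LIF it was -0.91, against 2.06 for the 10 genes. There 2 of the 12 fell and 0 rose, where 2.21% and 2.37% of all genes did. Of 11 definitive endoderm and mesoderm genes, in 2i/LIF against KOSR/LIF, 1 fell, Hand1 (at least 9.55-fold lower), and 1 rose, Gsc (3.11 ± 0.41). These counts are close to the shares of all genes, 8.72% lower and 5.95% higher. Hand1 is also 1 of the 3 trophoblast genes that fell. Hand1 was well above background on 2 of the 3 KOSR/LIF arrays, so its bound is not strict. The median of the 11 genes ran from -2.64 to -2.01, from -2.48 to -1.96 and from -2.91 to -1.82. The part of any of these cell types in the levels of the 10 genes was not tested.

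The genes most like 4 of the members over the 11 arrays were named by Pearson's r of log2 level, as a description in which the points share medium and array. Gata4 was closest to Pdzd3 (r = 0.967), Nphp4 (0.956), Krt23 (0.945) and Smc1b (0.923). Gata6 was closest to Fez1 (0.946), Atp1b2 (0.943), Nlrp14 (0.932) and Bmper (0.926). Dab2 was closest to Cep68 (0.976), Chst5 (0.967), Foxq1 (0.962) and Zpbp2 (0.959), and Lrp2 to Ptpru (0.981), Plvap (0.981), Ctdspl (0.980) and Gm5796 (0.970). Pdzd3, Krt23 and Bmper were not well above background on most of the 11 arrays. Among the 2i/LIF arrays, Chst5 and Foxq1 were well above background on replicate 5 only. Ptpru showed the pattern of Lrp2 directly, at -3.18 to -2.15 on 2i/LIF, 0.25 to 0.67 on KOSR/LIF and 0.22 to 0.42 on serum/LIF arrays. No gene was shared between the 4 sets.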

How the data were processed

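RNA of 11 cultures was hybridised to Agilent one-colour arrays, 1 per sample. RNA was prepared with Qiagen RNeasy kits and labelled with Cy3, per the labels' protocols. Per the file headers, Agilent Feature Extraction 11.0.1.1 subtracted background and removed spatial trends on each array, and the intensities it gave, deposited unlogged, were not scaled between arrays. The authors' deposited value table holds unlogged intensities as well, with column medians alike, and the sources used here do not say how it was made.

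Unflagged non-control spots were averaged per probe, log2 taken and each array's 75th percentile subtracted. Probes were named through RefSeq accessions (table of assembly GRCm38.p6, names only, since the probe design used mm9). A probe entered if well above background on at least 3 of 11 arrays, and the brightest probe stood for its gene. One limma 3.58.1 fit (R 4.3.3) over 11 arrays, with 1 mean per medium and no covariates, gave two-sided tests with Benjamini-Hochberg adjustment over 16279 genes. It had 8 residual and 3.52 prior degrees of freedom. It was tested on simulated data. The members, gene lists and tests were chosen with earlier results of these data known. Named genes are the 10 members, and, of each list and comparison, up to 3 passing genes per direction with the largest change, 4 likeness partners for each of 4 members, and Hhex, Pou5f1, Nanog and Sox2; Pdgfa, Amn and Foxa1 come under the lists. Some genes that this rule names are not reported here. The normexp alternative used median foreground intensities in place of the planned means. The number of arrays limits precision, and no label says that repeated samples of a line were separate cultures, so the p-values cover only the spread among these samples, which may be technical.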

Additional observations from a re-analysis of the deposited data

How the results depend on the processing

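With all arrays 2, 1 and 8 of the 10 genes passed in 2i/LIF against serum/LIF, KOSR/LIF against serum/LIF and 2i/LIF against KOSR/LIF. Of all 16279 genes, 2722, 745 and 2388 passed there in either direction. Leaving out each array in turn gave 2 to 4, 0 to 5 and 5 to 8 of the 10. Of all genes 1869 to 3203, 225 to 915 and 1759 to 2593 then passed. In 2i/LIF against serum/LIF 4 passed with only the arrays of the media compared, as did 2892 of all genes. There 3 passed with the deposited value table and with slide, line from titles or line from source names as a block. In the same order 3479, 3743, 2686 and 2636 of all genes passed. With slide as a block 1 of the 3, Hnf4a, was higher. In KOSR/LIF against serum/LIF 3 passed with normexp, 5 with the deposited value table, 4 with scan day as a block, 6 with slide as a block, 5 and 3 with the line from titles or from source names as a block, 2 without 2i/LIF replicates 1 and 5 together, 2 with only the arrays compared and 5 within scan day 1. In the same order, 371, 711, 999, 1013, 687, 685, 799, 742 and 685 of all genes passed in either direction. In 2i/LIF against KOSR/LIF 4 of the 6 that stayed passed when a probe had to be well above background on all arrays of a medium. Of the 14605 genes tested there, 2386 passed. Where calls changed, the cause was not tested, except that the last setting tests fewer genes and the settings on subsets of arrays use fewer samples.

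Replicate numbers did not pair the arrays: deviations of same-numbered arrays correlated at -0.20 to 0.18. With replicate number as a block 2, 1 and 5 passed, and Gata6 (-3.87, adjusted p = 0.0667), Pdgfra (-3.07, adjusted p = 0.14) and Sox17 (-1.67, adjusted p = 0.169) no longer did in 2i/LIF against KOSR/LIF. Of all genes 1929, 503 and 1408 passed with that block in the 3 comparisons.

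Only differences that had not passed changed sign. Gata4 in 2i/LIF against serum/LIF (0.02) was -0.07 with normexp, -0.03 with quantile normalization and with the deposited table, 0 with the other percentile (over probes well above background on all arrays), -0.01 with slide as a block, -0.02 without 2i/LIF replicates 1 and 5, -0.48 within scan day 3 and -0.12 to 0.30 on leaving out 1 array. Sox17 in the same comparison (0.07) was -0.08, -0.01 and -0.01 with normexp, quantile and deposited values, -0.03 without replicates 1 and 5, -0.52 within scan day 3 and -0.31 to 0.45 on leaving out 1 array, and Pdgfra (0.48) was -0.58 within scan day 3. In KOSR/LIF against serum/LIF Foxa2 (-0.11) was 0.35 with normexp, 0.01 with the other percentile, 0.41 with the deposited table, 0.33 with the mean of its probes, 0.49 and 0.57 with scan day and slide as blocks, 0.64 within scan day 1 and -0.84 to 0.73 on leaving out 1 array. Lrp2 (0.04) was -0.16 with normexp, -0.01 within scan day 1 and -0.25 to 0.31 on leaving out 1 array, and Dab2 (0.77) was -0.01 to 1.67. The within-day fits were chosen after seeing the data. Weak signal on KOSR/LIF replicate 3 limits what can be said of genes near background there.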

Other observations

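Some trophoblast genes, outside the primitive endoderm lineage, also differed between media. In 2i/LIF against serum/LIF 5 of 12 fell and 1 rose (6 and 1 without KOSR/LIF replicate 3). Of all genes, 9.98% fell and 6.74% rose there (11% and 8.64% without that array). Krt18, a keratin of simple epithelia, fell by 5.13 ± 0.51 (adjusted p = 5e-05), and Plac1, a placental gene, was at least 4-fold lower (adjusted p = 6.33e-05). Tead4, a factor that starts the trophoblast programme, rose by 1.34 ± 0.35 (adjusted p = 0.0211). Krt8, the partner keratin, fell by 3.87 ± 0.92 in KOSR/LIF against serum/LIF (adjusted p = 0.0367), and Krt18 fell by 3.23 ± 0.57 (adjusted p = 0.0105). Without KOSR/LIF replicate 3 those changes were -2.58 (adjusted p = 0.044) and -2.64 (adjusted p = 0.024).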
